A study of Camelus dromedarius with 4 samples.

Results

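The annexins are the 8 genes ANXA1, ANXA2, ANXA3, ANXA4, ANXA5, ANXA6, ANXA7 and ANXA11, taken by symbol from the authors' table of season means. They are 8 of 16049 gene symbols with a mean in both seasons, and all 8 had a mean of at least 10 in winter and in summer, the limit below which the paper excluded genes. The members were chosen by family name with their summer and winter means in view, so the seasonal values below are a description and carry no test. RNA was sequenced from the supraoptic nucleus (SON), the hypothalamic nucleus of the vasopressin and oxytocin neurones, of dromedary camels (Camelus dromedarius). There were 2 winter libraries and 2 summer libraries, from healthy, age-matched adult males of the Tergui breed. The animals were fully hydrated before slaughter, and season is the only factor that the labels vary. The winter and summer animals were slaughtered at different sites, so that season and site cannot be told apart. The labelled tissue carried neurohypophysial transcripts, with authors' means of 11822 in summer and 2560 in winter for the putative AVP and of 592 and 621 for OXT.

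Annexins are cytosolic proteins that bind acidic phospholipids when calcium is raised. Each has a conserved core of annexin repeats that carries the calcium sites, and a variable N-terminal tail that decides its partners, among them S100 and other EF-hand proteins. They take part in exocytosis, membrane repair, the clearance of dying cells and the control of inflammation. In the brain they are known from microglia, vessels, meninges, astrocytes and neurones, and ANXA1 also carries part of the feedback of glucocorticoids on the hypothalamus and pituitary.

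Each season mean is the mean, over the libraries of that season, of reads divided by a size factor, and is printed with 6 significant digits. A mean can therefore be solved for the whole reads of each library. Since the means carry no replicate number, a library is named here after its size factor: 1.33 (larger) and 0.946 (smaller) in winter, and 0.922 (larger) and 0.877 (smaller) in summer. The summer means of all 8 annexins had a single solution. The winter means of ANXA3, ANXA4 and ANXA11 had a single solution, those of ANXA5 and ANXA7 had 2, and those of ANXA1, ANXA2 and ANXA6 had 3. The solutions of 1 gene differ by exchanging 185 reads of the larger-factor winter library for 132 reads of the other. Among 2412 symbols with winter means of 50 to 100 and a single solution, the libraries differed by 0.39 on the log2 scale at the median. For ANXA1, the solutions other than the most even one were matched or exceeded in unevenness by 2 and 5 of these symbols. The same counts were 10 and 2 for ANXA2, 16 for ANXA5, 11 and 1 for ANXA6, and 2 for ANXA7. The winter means of these annexins, from 161 (ANXA7) to 438 (ANXA6), lie above the range of 50 to 100. The comparison is therefore not at like means. The most even solution is printed below as the library value and the others are given beside it, since the means alone do not decide between them. It is chosen for libraries that lie close together. For ANXA1, ANXA2, ANXA5, ANXA6 and ANXA7, the winter SDs and the ranges with a winter library left out are therefore narrowed by that choice.

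**Figure D1:**
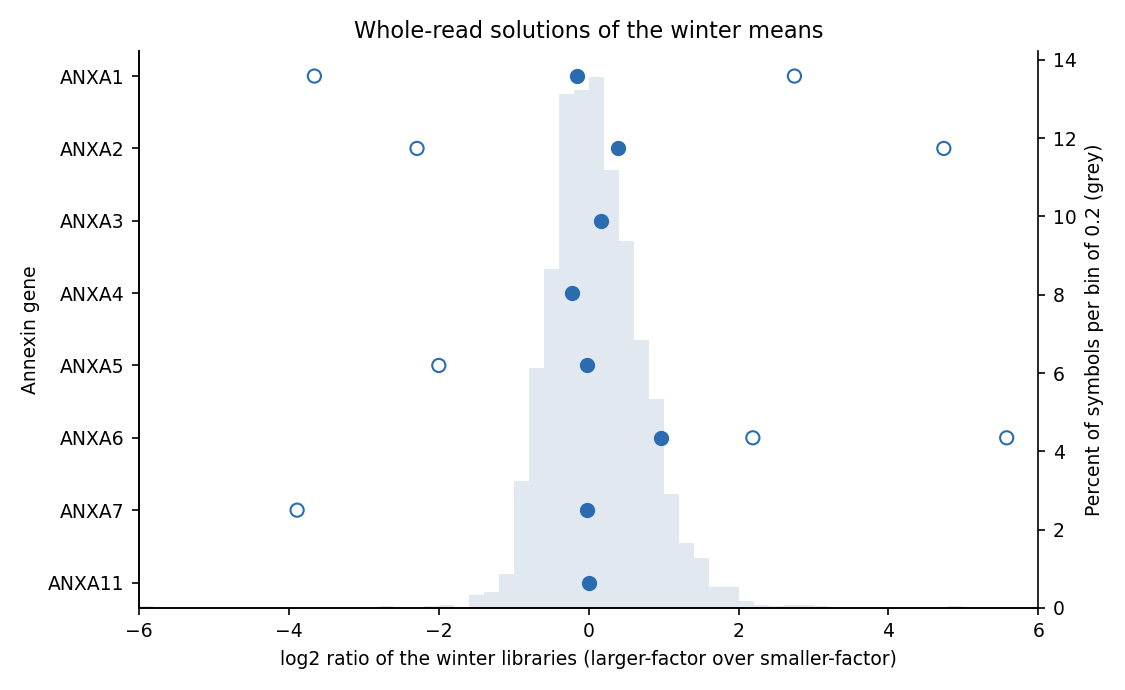
Every whole-read solution of the winter mean of each annexin, as the log2 ratio of the larger-factor winter library to the smaller-factor one (horizontal axis), by gene (left axis). Filled points mark the most even solution and open points the others. Grey bars give the percent per bin of the 2412 singly solved symbols with winter means of 50 to 100 (right axis). The filled points lie between -0.22 (ANXA4) and 0.96 (ANXA6) and the open points at -2.0 or below, or at 2.19 or above.

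Of the 8 annexins, 7 had a lower mean in winter than in summer, beside 53.8% of the 13808 symbols that reached a mean of 10 in either season. Only ANXA6 had the higher mean in winter. The median log2 ratio of winter to summer was -0.45 over the annexins and -0.036 over all those symbols. ANXA1 and ANXA2 were the 2 annexins more than 2-fold apart, both higher in summer, beside 4.53% of all symbols. No annexin was more than 2-fold higher in winter, beside 2.72% of all symbols. Since the choice of members used these means, nothing is read from the counts. In bulk tissue, fewer cells of a type and less RNA per cell cannot be told apart.

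**Figure D2:**
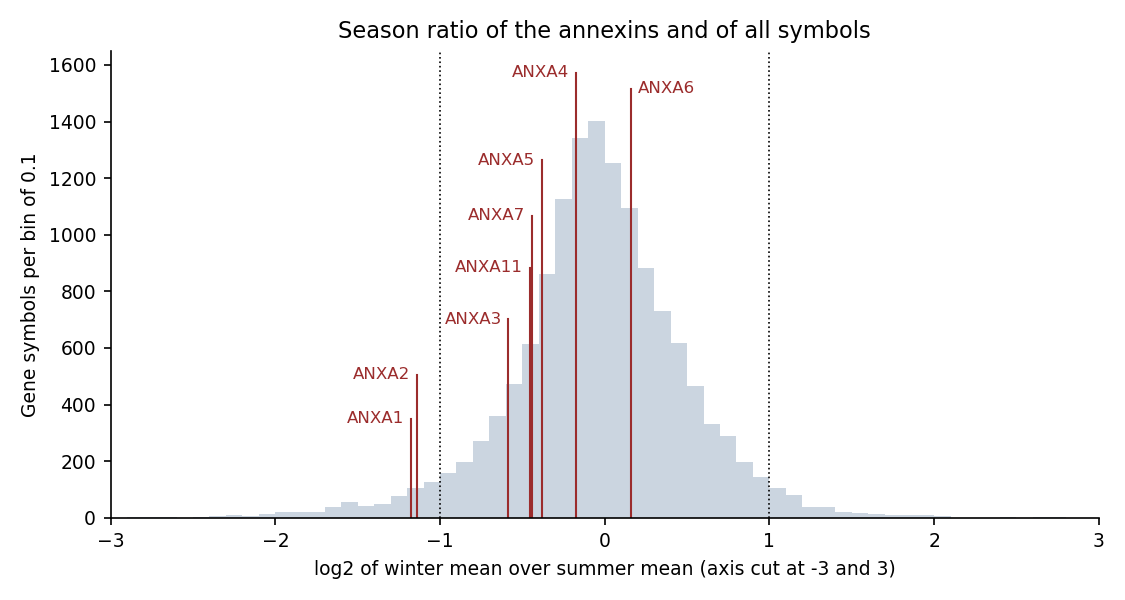
The log2 ratio of winter mean to summer mean of each annexin (red lines) over the distribution of all 13808 symbols (grey bars, symbols per bin of 0.1). Dotted lines mark 2-fold. ANXA1 at -1.18 and ANXA2 at -1.14 lie beyond the left dotted line, the next annexin is ANXA3 at -0.59, and ANXA6 at 0.16 is the only one right of 0.

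ANXA1 is the glucocorticoid-induced annexin, which acts on leukocytes and microglia through formyl peptide receptors. It had 370 and 342 reads in the larger-factor and the smaller-factor summer library. After division by the size factors these were 401 and 390, or 396 ± 8.06 (SD, n = 2). In winter the most even solution was 219 and 175 reads, which gave 165 and 185 normalized reads, or 175 ± 14.0 (SD, n = 2). Both summer libraries thus lay above both winter libraries, and the summer libraries lay close together. How close the winter libraries lay depends on the solution. The summer mean was 2.26 times the winter mean, a log2 ratio of -1.18, and 415 of the 13808 symbols had a lower ratio. The other winter solutions were 34 and 307 reads or 404 and 43 reads. They gave 25.7 and 325, or 305 and 45.5, normalized reads, and each also lay below both summer libraries. Leaving out 1 library at a time moved the log2 ratio between -1.26 and -1.10 in the most even solution, and from -3.95 to -0.28 over all solutions, both ends without 1 of the winter libraries. Counting error alone was 5.20% and 5.41% for the summer libraries.

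ANXA2 forms a complex with S100A10 at the cell surface, where it binds plasminogen and its activator, and beneath the membrane, where it takes part in exocytosis. It had 288 and 405 reads in the summer libraries, which gave 312 and 462 normalized reads, or 387 ± 105.6 (SD, n = 2). The most even winter solution was 264 and 144 reads, or 199 and 152 normalized reads and 176 ± 33.2 (SD, n = 2). In this solution the seasons did not overlap, but the summer libraries were 1.48-fold apart, wider than those of ANXA1 (1.03-fold). The log2 ratio of the means was -1.14. It was -0.83, under 2-fold, without the smaller-factor summer library and -1.39 without the larger-factor summer library. Without the smaller-factor winter library it was -0.96 in the most even solution, and over all solutions the ratio went from -4.93 to -0.19 when a winter library was left out. The other winter solutions were 79 and 276 reads or 449 and 12 reads. The last of these placed a winter library at 339 normalized reads, above the summer library of 312, so that the seasons overlapped.

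S100A10 and S100A11, EF-hand proteins that bind the N-terminal tails of ANXA2 and ANXA1, were singled out after their values were seen. The authors' means of S100A10 were 192 (summer) and 126 (winter), which is a log2 ratio of -0.61. Its summer libraries were at 195 and 188 normalized reads. Its winter libraries were at 143 and 109 in the most even solution, or at 3.02 and 249 in the other. S100A11 had 17 and 39 summer reads against 34 and 11 winter reads, or 18.4 and 44.5 against 25.7 and 11.6 normalized reads. The seasons overlapped, and the difference did not pass the test described below (log2 fold change -0.70, SE 0.72, adjusted p = 0.982, edgeR's quasi-likelihood test).

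**Figure D3:**
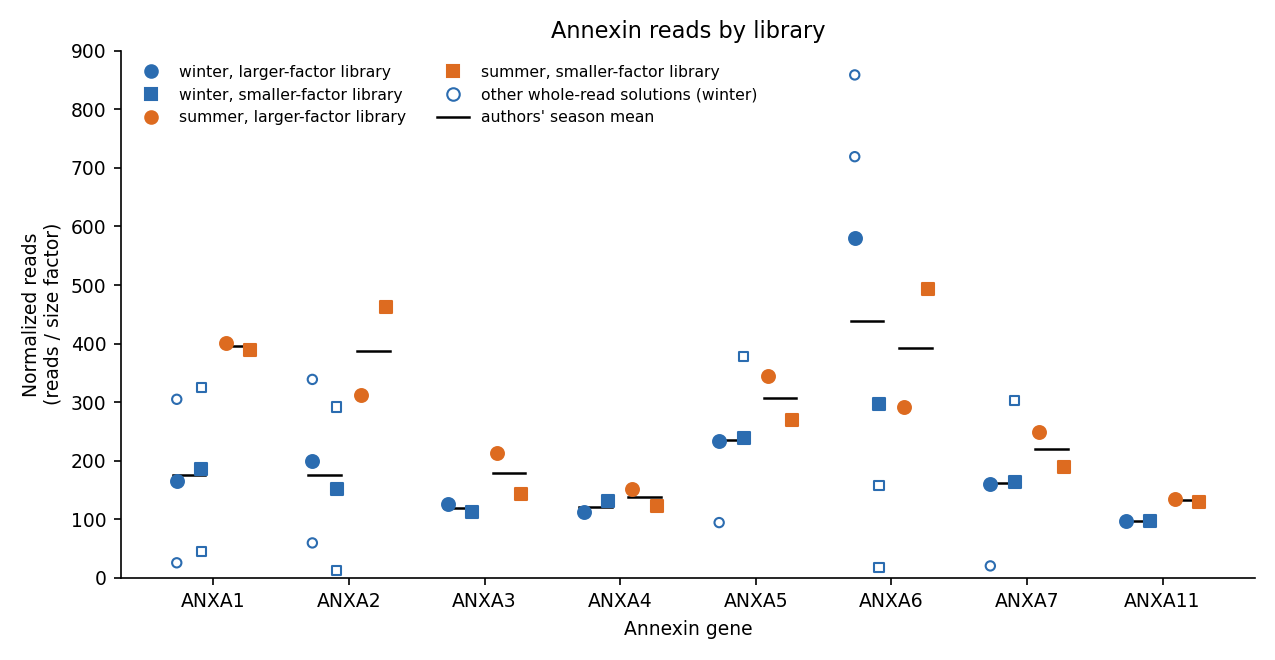
Normalized reads (reads divided by the size factor, vertical axis) of each annexin in the 4 libraries, winter in blue and summer in orange, with circles for the larger-factor library and squares for the smaller-factor one. Filled symbols are single or most even solutions, small open symbols the other winter solutions, and black lines the authors' season means. For ANXA1 every blue symbol lies below both orange ones, while for ANXA4 and ANXA6 the filled symbols of the seasons interleave.

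ANXA3, ANXA5, ANXA7 and ANXA11 had both summer libraries above both winter libraries in the most even solution, each by less than 2-fold between the means. For ANXA3 and ANXA11 this is the only solution. ANXA3, an annexin of neutrophils, endothelium and other cells, had 197 and 126 summer reads against 167 and 106 winter reads. These gave 214 and 144 against 126 and 112 normalized reads, or 179 ± 49.5 against 119 ± 9.84 (SD, n = 2). The seasons were apart, but the larger-factor summer library lay well above the other three libraries. The log2 ratio of -0.59 moved to -0.27 without that library and to -0.84 without the other summer library.

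ANXA11 has a long proline-rich tail and tethers RNA granules to lysosomes. It had 124 and 114 summer reads against 128 and 91 winter reads, which gave 134 and 129.9 against 96.6 and 96.2 normalized reads. These means were 132 ± 3.20 and 96.4 ± 0.246 (SD, n = 2). The libraries of each season were nearly equal, and the seasons did not overlap. These SDs are smaller than the counting error, which was 8.84% and 10.5% in the winter libraries. The log2 ratio was -0.46, and no single library moved it outside -0.48 to -0.43.

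ANXA7, or synexin, was found as a protein that fuses chromaffin granules, and binds sorcin and PDCD6 through its tail. It had 230 and 166 reads in summer, or 249 and 189 normalized reads. In winter it had 212 and 154 reads in the most even solution, or 159.97 and 163, and 27 and 286 reads in the other. The other solution gave 20.4 and 302 normalized reads, so that the seasons overlapped. The log2 ratio of the means was -0.44, and went from -0.63 to -0.23 with each library left out of the most even solution. ANXA5, the protein used as a probe for exposed phosphatidylserine, had 318 and 237 reads in summer, or 345 and 270.1 normalized reads. In winter it had 310 and 225 reads in the most even solution, or 234 and 238, and 125 and 357 reads in the other, which gave 94.3 and 378. Its seasons overlapped in that other solution. The log2 ratio was -0.38, and went from -0.55 to -0.20 with each library left out of the most even solution. The larger-factor summer library was the higher one for ANXA3, ANXA5 and ANXA7, and leaving it out gave the smallest difference for each of them.

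ANXA4 and ANXA6 did not separate the seasons in any solution. ANXA4, an annexin of epithelia and secretory cells, had 140 and 108 summer reads against 149 and 124 winter reads. These gave 152 and 123 against 112 and 131 normalized reads, with a log2 ratio of -0.17. ANXA6, whose core is a tandem duplication of the annexin core, had 269 and 433 reads in summer, or 292 and 494 normalized reads. The most even winter solution was 768 and 281 reads, or 580 and 297 normalized reads. Of the 2412 singly solved symbols, whose winter means of 50 to 100 are lower than that of ANXA6, 250 were at least as uneven (10.4%). The other solutions were 953 and 149 reads or 1138 and 17 reads, which are more uneven still. The means were 393 (summer) and 438 (winter). Their log2 ratio of 0.16 turned to -0.40 without the larger-factor winter library and to -0.17 without the larger-factor summer library. ANXA6 thus differed more between the libraries of a season than between the seasons.

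Over the 8 annexins, both summer libraries lay above both winter libraries in every solution for 3 (ANXA1, ANXA3 and ANXA11), beside 10% of 13198 symbols with means up to 1000. In the most even solution they did so for 6, with ANXA2, ANXA5 and ANXA7 added, beside 14.9% of the symbols. Choosing the most even solution favours seasons apart, and the share of symbols in at least 1 solution was also 14.9%. With the libraries scaled to their total recovered reads in place of the size factors, only ANXA11 kept its seasons apart in every solution. The share of all symbols under that scaling is not given here, so the fall from 3 to 1 cannot be set beside it. That scaling moved the log2 ratio of all singly solved symbols by 0.10 at the median, towards winter. For 0 of the 8 annexins did both winter libraries lie above both summer libraries in every solution, beside 7.98% of the symbols. The count was also 0 in any solution, for which the share of all symbols is not given here.

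The libraries of a season did not deviate together across the family. In summer, ANXA2 and ANXA6 were higher in the smaller-factor library, by 1.48-fold and 1.69-fold. ANXA3, ANXA4, ANXA5 and ANXA7 were higher in the larger-factor library, by 1.23-fold (ANXA4) to 1.49-fold (ANXA3). ANXA1 and ANXA11 were within 1.04-fold. Among 5077 symbols with summer means of 100 to 400 and a single solution, the summer libraries differed by 1.30-fold at the median, and 18.9% differed by at least as much as ANXA6. Of 9870 symbols singly solved in both seasons, 8394 had a read in the larger-factor summer library and 9516 to 9609 in the other libraries. In the count files of the single libraries, summer replicate 2 had the fewest gene models with a read, 40178 against 49320 to 52456. Yet replicate 2 had more reads on gene models than summer replicate 1 (5520242 against 4406533). The larger-factor summer library had fewer reads on the singly solved symbols than the other summer library (376194 against 438800). No replicate number was assigned to a solved library.

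Markers of the cell types that the dissected tissue can hold were compared with the annexins. Of the 3 astrocyte genes with singly solved reads, ALDH1L1 and SLC1A3 were high in the same libraries as ANXA6, and AQP4 was not. ALDH1L1, a folate enzyme of astrocytes, was at 212 and 76.1 normalized reads in the winter libraries (larger factor first), against 70.5 and 168 in the summer libraries. SLC1A3, a glutamate transporter, was at 115 and 77.2 in winter, against 56.4 and 119 in summer. AQP4, the astrocyte water channel, was at 6.79 and 3.17 in winter, against 9.76 and 10.3 in summer. The singly solved astrocyte genes summed to 334 and 157 in winter and to 137 and 296 in summer. Only the most even solution of ANXA6 ranked the libraries in the same order. Its other winter solutions put the smaller-factor winter library, at 158 or 18.0, below both summer libraries. Genes of other lists were high in these libraries too. The endothelial CLDN5 was at 98.9 and 56.1 in winter, against 67.2 and 98.0 in summer, and the membrane repair gene EHD2 at 104.9 and 63.5, against 62.9 and 117. The neuronal SNAP25, SYT1 and TUBB3 were also higher in the smaller-factor summer library, at 199, 116 and 496 against 79.2, 36.9 and 183. The part of astrocytes or other cells in the ANXA6 values was not tested.

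**Figure D4:**
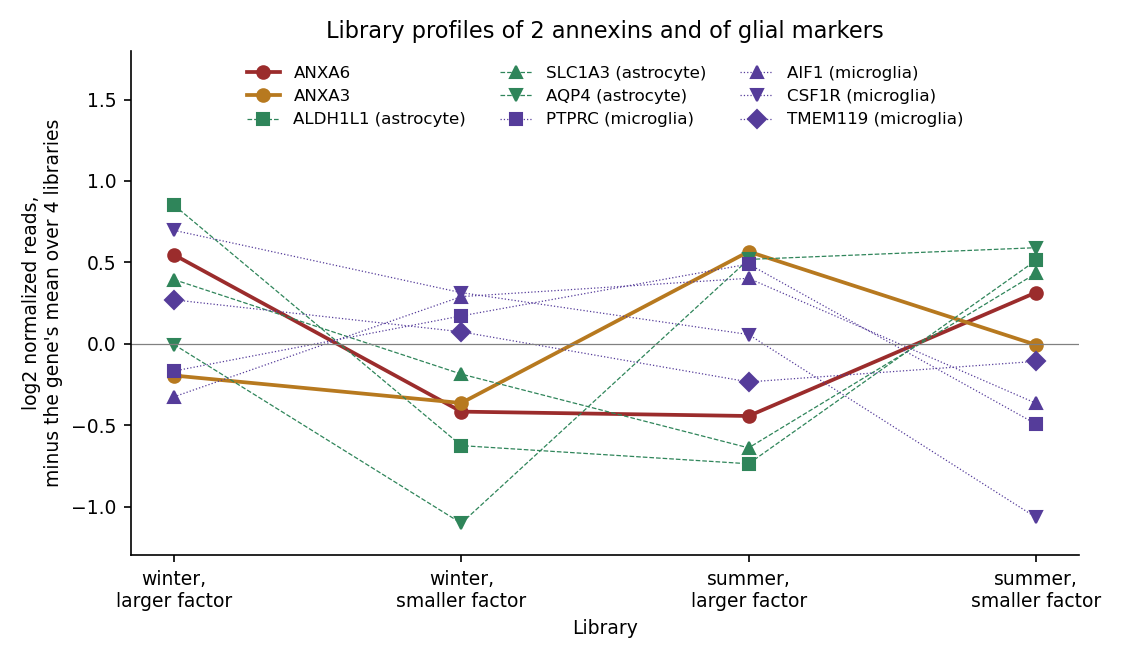
The log2 normalized reads of ANXA6 and ANXA3, of the 3 astrocyte and of 4 microglial markers with singly solved reads and means of at least 10, each minus its own mean over the 4 libraries (vertical axis). The lines only join the points of a gene, since libraries have no order. ANXA6 is drawn in its most even solution. ANXA6, ALDH1L1 and SLC1A3 are high in the larger-factor winter and the smaller-factor summer library, and ANXA3, PTPRC and AIF1 are highest in the larger-factor summer library. CSF1R and TMEM119 are highest in the larger-factor winter library, and TMEM119 is lowest in the larger-factor summer library.

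Between the seasons, GFAP, the astrocyte intermediate filament, had an authors' mean of 25074 in summer and 14423 in winter, and 3 of the 6 astrocyte genes were lower in winter. Of the 13 microglial markers, 10 reached a mean of 10, and 7 of these were lower in winter, beside 53.8% of all symbols. The means of the 10 markers summed to 9136 in summer and 7060 in winter. The complement genes C1QB and C1QC, with log2 ratios of -0.61 and -0.53, took most of that difference. AIF1 (-0.054) and PTPRC (-0.069) were nearly level, and CSF1R was at 0.92. CD68 was listed at 0 in summer and at 2.19 in winter, and C1QA and TYROBP were not listed. The singly solved microglial markers of any mean, CD68 included, summed to 384 and 418 normalized reads in winter and to 427 and 258 in summer, so that the seasons overlapped. That sum leaves out C1QB, C1QC, CX3CR1, P2RY12, TREM2 and ITGAM, whose reads were not singly solved. All of these but ITGAM had a lower mean in winter, and ITGAM was at a log2 ratio of 0.036.

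Of the 9 neutrophil and monocyte markers, 4 had a mean of at least 10 and 3 of these were lower in winter. Several neutrophil genes were at or near the floor of 3 reads. MPO had 0 and 4 summer reads against 0 and 0 winter reads, and ELANE 0 and 0 against 6 and 2. S100A12 had 0 and 5 summer reads against 0 and 1 winter reads. S100A8 had 9 and 10 summer reads against 6 and 4 winter reads, so that its seasons did not overlap, but it did not pass the 2-fold rule described below (log2 fold change -1.24, SE 0.90). The 7 singly solved markers of the list summed to 235 and 252 normalized reads in winter and to 295 and 230.2 in summer, and CD14, LYZ and CSF3R carried most of these sums. Of the 6 leptomeningeal and fibroblast genes with a mean of at least 10, 5 were lower in winter, and the singly solved markers of this list, LUM included, summed to 475 and 419 in winter against 570.4 and 537 in summer. COL1A2, a collagen I chain, passed the 2-fold rule described below (log2 fold change -1.02, SE 0.39, unadjusted p = 0.0321 and adjusted p = 0.982 in edgeR's quasi-likelihood test). It was at 115 and 88.9 normalized reads in summer and 42.3 and 59.2 in winter. COL1A1, the other collagen I chain, went the other way (log2 fold change 0.22, SE 0.57). COL1A1 was at 43.4 and 37.6 normalized reads in summer and 67.2 and 25.4 in winter. Of the 7 endothelial markers 4, and of the 6 mural markers 3, were lower in winter. The log2 ratios ran from -0.57 (ESAM) to 0.91 (CDH5) for the endothelial markers. For the mural markers they ran from -0.83 (RGS5) to 1.13 (NOTCH3). Of the 6 neuronal genes 5 were higher in winter, all but AVP, with a log2 ratio of 0.76 for SNAP25, 0.84 for SYT1 and 0.91 for RBFOX3. Among oligodendrocyte genes 5 of 6 were higher in winter. Of all 13808 symbols that reached a mean of 10 in either season, 7429 (53.8%) were lower in winter and 6378 were higher. The part of these cell types in the annexin values was not tested.

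Genes of annexin biology that the choice of members did not use were tested with edgeR's quasi-likelihood method, fitted to all 7629 singly solved symbols that reached a mean of 10 in either season. At the thresholds of the paper (an unadjusted p under 0.05 and more than 2-fold), 128 of these symbols passed, or 1.68%, and 0.826% were lower in winter. At a Benjamini-Hochberg adjusted p of 0.05, 0 passed (0.00%), 152 had an unadjusted p under 0.05, and edgeR's exact test and DESeq2 each called 1. The partner genes came from 5 lists, also chosen with earlier results of these data known. Only the 11 with singly solved reads could be tested. None of the 11 passed the 2-fold rule in either direction, with 0 also by the exact test and DESeq2. The fit's common biological coefficient of variation, the spread within a season beyond counting, was 0.46. With 2 libraries per season, this result does not show that the 11 genes were level. An exact permutation test over 2 against 2 libraries cannot give a p below 0.333.

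The S100 and EF-hand partners bind annexin tails. All 8 measured members had a lower mean in winter, beside 53.8% of all symbols, and SRI, PDCD6 and PEF1 were nearly level. The log2 ratio was -0.41 at the median and ran from -0.75 (S100A11) to -0.065 (SRI). Of the members named by rule, S100B, an astrocyte calcium sensor that binds ANXA6, was at -0.65, AHNAK, a giant scaffold that binds ANXA2 with S100A10, at -0.74, and SRI, or sorcin, a partner of ANXA7, at -0.065. Only S100A11 and PEF1 could be tested. PEF1, which pairs with PDCD6, had normalized reads of 66.1 and 84.3 in summer and 68.7 and 73.0 in winter (log2 fold change -0.088, adjusted p = 0.987, edgeR's quasi-likelihood test). PDCD6, which binds ANXA7 and ANXA11, had a log2 ratio of -0.072. S100A4 was not listed.

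Among the receptors and proteases, the formyl peptide receptor genes FPR1, FPR2 and FPR3, whose products bind ANXA1, were not listed under these symbols. All 4 measured genes had a lower mean in winter, beside 53.8% of all symbols. TRPM7, a channel kinase that phosphorylates ANXA1, was at -0.29, and PLAT, the tissue plasminogen activator that binds the ANXA2 complex, at -0.17. PLGRKT, a plasminogen receptor, was at 45.5 and 44.5 normalized reads in summer against 31.7 and 28.6 in winter. Its seasons did not overlap, but it did not pass the rule (log2 fold change -0.57, SE 0.49). PLG, plasminogen itself, was named after its values were seen and had 12 and 52 summer reads against 19 and 12 winter reads. The log2 fold change of PLG was -1.39 (SE 0.83, adjusted p = 0.982, edgeR's quasi-likelihood test), and the smaller-factor summer library alone stood apart.

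Of the 6 glucocorticoid and phospholipase genes, 5 had a lower mean in winter, beside 53.8% of all symbols. The median log2 ratio of the 6 genes was -0.32, but none could be tested, since each winter mean had more than 1 solution. FKBP5 and TSC22D3, both induced by glucocorticoids as ANXA1 is, had log2 ratios of -0.93 and -0.67. FKBP5 was at 338 and 189 normalized reads in summer and at 109 and 168 in the most even winter solution, or at 249 and 28.6 in the other, where the seasons overlapped. TSC22D3 was at 509 and 312 in summer and at 257 and 260 in the most even winter solution. Its other winter solutions were 117 and 400, or 396 and 121, and both overlapped with summer. DUSP1, another glucocorticoid-induced gene, was at 0.026, NR3C1, the glucocorticoid receptor, at -0.048, and PLA2G6, a calcium-independent phospholipase, at -0.0068. PLA2G4A, the cytosolic phospholipase that ANXA1 inhibits, was at 236 and 219 in summer and at 138 and 163 in the most even winter solution, with a log2 ratio of -0.60. Its other winter solution was 278 and 23.3, which overlapped with summer.

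Of the 10 measured membrane repair genes, 7 had the higher mean in winter and 3 the lower (MYOF, EHD2 and PDCD6IP), with a median log2 ratio of 0.12 beside -0.036 over all symbols. DYSF, or dysferlin, which patches muscle membranes with ANXA1 and ANXA2, was at 0.39, CAPN2, a calpain, at 0.40, and PDCD6IP, an ESCRT adaptor, at -0.060. The singly solved CHMP4B, EHD2 and MYOF did not pass the 2-fold rule. Of the 11 measured genes of phosphatidylserine recognition, 6 had the higher mean in winter and the median was 0.018. Of all 13808 symbols, 6378 had the higher mean in winter. BAI1, an engulfment receptor, was at 0.32, ITGAV, an integrin chain, at 0.018, and GAS6, a bridging ligand, at 0.25. CD36, a scavenger receptor, was at 62.9 and 236 normalized reads in summer and 51.3 and 110.0 in winter, and STAB1, an endothelial and macrophage receptor, at 29.3 and 52.4 against 20.4 and 14.8. Their log2 fold changes were -0.90 (SE 0.64) and -1.19 (SE 0.62), and neither passed the rule (adjusted p = 0.982 for both, edgeR's quasi-likelihood test). TYRO3, a receptor for GAS6, lay the other way, with authors' means of 152 in summer and 279 in winter and a log2 ratio of 0.87, and could not be tested. CD36, STAB1 and TYRO3 were singled out after their values were seen.

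**Figure D5:**
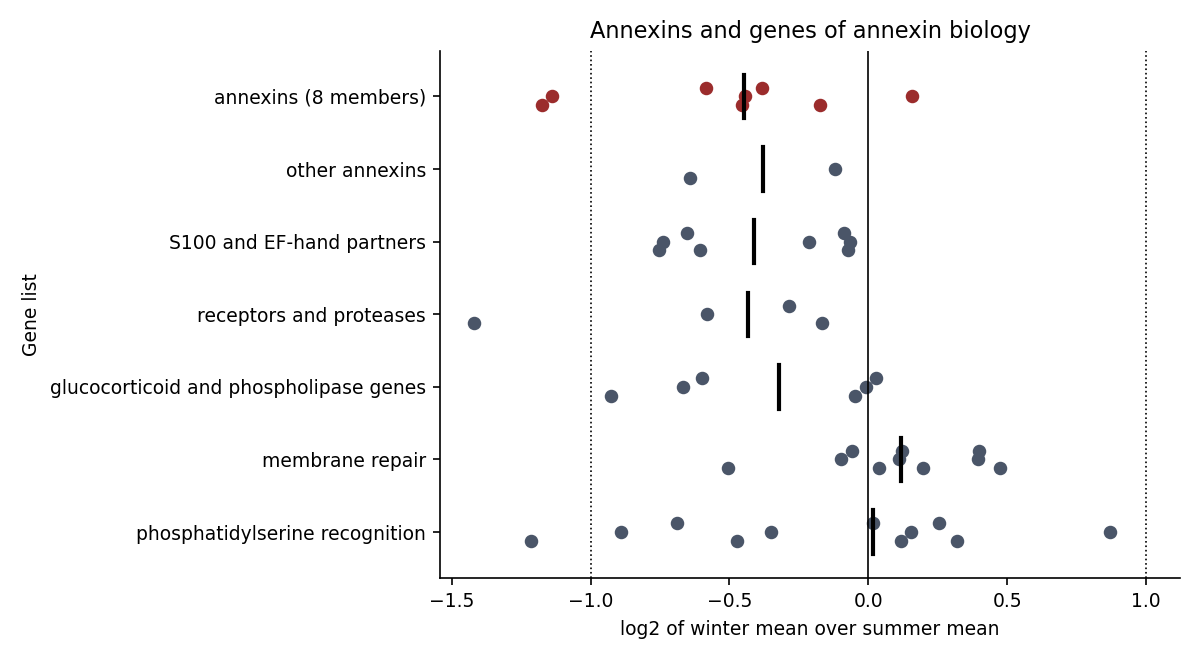
The log2 ratio of winter mean to summer mean (horizontal axis) of each gene that reached a mean of 10 in either season, by gene list (vertical axis), with the 8 annexins in red, the median of each list as a black bar and 2-fold as dotted lines. The medians are -0.45 for the annexins, -0.41 for the S100 and EF-hand partners and 0.12 for membrane repair, and PLG and STAB1 are the only partner genes past 2-fold between the means.

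Of the annexins outside the 8 members, ANXA9 and ANXA13 reached a mean of 10. ANXA9, which has lost most of its calcium sites, was at 124 and 74.1 normalized reads in summer against 86.8 and 95.2 in winter (log2 fold change -0.12, SE 0.38, adjusted p = 0.985, edgeR's quasi-likelihood test). ANXA13, an annexin of epithelia, had 9 and 34 summer reads against 16 and 18 winter reads, with the smaller-factor summer library alone apart and a log2 fold change of -0.66 (SE 0.83, adjusted p = 0.982, edgeR's quasi-likelihood test). In both genes the seasons overlapped. ANXA8 had 0 and 2 summer reads against 2 and 5 winter reads, and ANXA8L2 had 6 and 2 against 1 and 1. These counts are too near the floor of 3 reads to compare. Reads of ANXA8 and ANXA8L2, which are near-identical copies, can be shared. ANXA10 was listed without a mean, and ANXA8L1 was not listed.

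Among the annexins with a single solution in both seasons, ANXA3 had the largest difference between the means. The singly solved symbols with the most similar profile, by the distance of centred log2 values over the 4 libraries among 7628 symbols, were PRPF4 (0.035), NR2C2AP (0.055), F11R (0.083), RGS18 (0.091) and MARK3 (0.097). MARK3, the least similar of these, was at 160.5 and 103.7 normalized reads in summer and at 99.6 and 86.7 in winter. The closer symbols had lower values, from 20.1 (F11R) to 47.7 (PRPF4) normalized reads, where counting error is larger. With 4 libraries, many profiles are alike.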

How the data were processed

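SON RNA was sequenced by the authors as stranded, rRNA-depleted, paired-end libraries, aligned with TopHat to their own dromedary assembly and counted with HTSeq; versions were not given in the sources used here. The deposited count files hold raw read counts for 64989 unnamed gene models (4379162 to 6902037 reads on gene models per library). Reads outside gene models (46.4% to 55.2% of tallied alignments), not uniquely aligned (20.2% to 26.9%) or ambiguous stayed out of all totals. The deposited table holds a signal per symbol, the authors' mean over a season of reads scaled with DESeq size factors. Its other columns, the authors' edgeR ratio (fold change, winter over summer) and p-value, were not used.

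The design assumed that tests could use whole reads solved from the season means. At least 1 pair of whole reads fitted the printed digits of 100% of 31805 means up to 2000. Large means had many such solutions (40 for CX3CR1 in summer), and 9870 symbols had a single solution in both seasons. Raw counts of the unnamed gene models matched the solved reads of no symbol exactly, so the solved reads have no outside check. Single solutions grow rarer as winter means rise, so the tested symbols favour low winter means. Symbols listed more than once (4 rows) were left out. Reads were fitted with edgeR 4.0.16 in R 4.3.3 (size factors from the solved steps, glmQLFit without its legacy mode, glmQLFTest) for symbols that reached a mean of 10 in either season, with Benjamini-Hochberg adjustment. Folds between season means had no pseudocount, and the likeness of profiles used log2 with a pseudocount of 1. Alternatives were edgeR's exact test, DESeq2 1.42.0, TMM, total reads, no filter, a fold of 1.5 and leaving out each library. The most even solution was added after the data were examined. Scripts were tested on simulated data.

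The members and lists were chosen with earlier results of these data known. Named were all members, the other annexins, and from each partner list the genes past the rule and the 3 with the highest mean. Cell type markers were named from their lists, and other partner genes were singled out after their values were seen. Labels do not say more of replicates than that they are separate samples, while the paper counts 2 camels per season for sequencing. Spread between libraries can hold technical differences as well as those between animals. The 2 libraries per season limit the precision, and counting errors and floors cover counting only. Reads were not divided by length, so levels are not compared between genes. Gene names of the 8 members matched RefSeq (mCamDro1.pat), another assembly than the authors', so no coordinates are given. Figures were drawn with matplotlib 3.10.9.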

Additional observations from a re-analysis of the deposited data

How the results depend on the processing

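The count of annexins more than 2-fold apart was 2, 3 at a fold of 1.5, and from 0 to 5 with each library left out in turn. That range spans all solutions of the reads. At a fold of 1.5 the added annexin was ANXA3, whose fold between the means of 1.5003 lay only just past that limit. All 3 annexins were higher in summer, beside 12.2% of the 13808 symbols that were more than 1.5-fold higher in summer. In the most even solution, the count past 2-fold was 1 without the smaller-factor library of either season and 2 without either larger-factor library. The count with seasons apart was 3, 6 in at least 1 solution and in the most even solution, and 1 with total recovered reads. Without the larger-factor winter library and over all solutions, the log2 ratio reached 0.30 for ANXA5, 0.46 for ANXA7 and -4.45 for ANXA6, each of the other sign than with all libraries. The other end of the range over all solutions and left-out libraries was -1.70 for ANXA5, -3.43 for ANXA7 and 1.13 for ANXA6. The ratios of ANXA1, ANXA2, ANXA3, ANXA4 and ANXA11 stayed below 0 in every alternative run. Past the 2-fold rule were 128 symbols, 60 with DESeq2 (the cause was not tested) and from 33 to 1159 with each library left out. Higher in winter were 65 of the 128, but 120 of the 166 symbols past the rule under total recovered reads. Without the larger-factor summer library 156 of 1100 calls were higher in winter, and without the smaller-factor one 949 of 1159. Past an adjusted p of 0.05 were 0 symbols, 1 with the exact test and 1 with DESeq2 (BLA in both), and from 0 to 231 with each library left out. For partner genes past the rule the count was 0, and from 0 to 3 with each library left out. These were CD36, PLG and STAB1 without the larger-factor summer library, and TIMD4 without the smaller-factor one. No paired analysis was possible because the seasons share only replicate number 2 and the solved libraries carry no number.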
